A study of Mus musculus with 3 samples.

Results

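The 10 genes described here encode the core of the G1 checkpoint: the D-type cyclins Ccnd1, Ccnd2 and Ccnd3, their kinases Cdk4 and Cdk6, the INK4 inhibitors Cdkn2a, Cdkn2b and Cdkn2c, and the CIP/KIP inhibitors Cdkn1b and Cdkn1c. They were chosen by symbol, with earlier results of these data known, and all 10 were found among the 18287 genes listed in the deposited tables. The cells were commercial mouse aortic endothelial cells, from the inner lining of the aorta, and 1 RNA library was sequenced for each of 3 groups. Control cells received neither agent. In the second group, called GO here, cells were exposed for 30 min to 5 mU/mL glucose oxidase, which oxidizes glucose and releases hydrogen peroxide. In the third, called GO+Et2HOBA, cells received glucose oxidase and, for 24 h, 0.2 mM ethyl-2-hydroxybenzylamine (Et2HOBA), an amine that scavenges isolevuglandins, reactive products of lipid oxidation. Values of 3 libraries are given in the order control, GO, GO+Et2HOBA. The labels give no number of animals, strain, sex or passage for the cells, and no time of harvest.

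D-type cyclins bind Cdk4 or Cdk6, and the active complex phosphorylates the retinoblastoma protein, which releases E2F transcription factors and lets a cell pass from G1 into S phase. INK4 proteins bind the kinases and keep the cyclin away, whereas CIP/KIP proteins bind cyclin-kinase complexes and act mainly on Cdk2. Endothelial cells in a resting vessel are mostly out of cycle, and inhibitors of both families are known markers of arrest and senescence in cultured cells.

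Over the listed genes the 3 libraries held 35969965, 35005089 and 40212212 reads. The GO counts were worked back from the authors' log2 differences. Counts were divided by size factors of 0.965 to 1.04 to give normalized counts. A fold or ratio below is one of normalized counts, with an exact Clopper-Pearson 95% interval. A log2 ratio has a pseudocount of 10 in both libraries, which understates differences of low genes. A gene was counted as past the limit at 1 log2 unit or more. With 1 library per group there is no replicate check and no test between conditions; the intervals cover counting error only and compare libraries. Fewer cells with a transcript and less of it per cell cannot be told apart in these bulk RNA samples. The lowest of 8 endothelial markers in any library was Tek, with 1688 reads, and their summed normalized count was 288097, 186949 and 178105. Of the 8, 7 were below control with GO and 6 with GO+Et2HOBA. Past the limit, 3 and 4 were lower and 0 higher, against 8.6% and 8.04% of all listed genes lower past it. With GO and GO+Et2HOBA, Tek was at 0.453 and 0.247 of control, Vwf at 0.495 and 0.267, and Kdr at 0.478 and 0.391. Unlike the sum, Emcn was higher in both treated libraries, with 5373, 6333 and 7936 reads. Cdh5 was at 0.870 of control with GO and at 1.14 times control with GO+Et2HOBA. Summed normalized counts were 4851, 3707 and 3934 for 4 of 5 smooth muscle markers listed (mainly Smtn), 131, 1404 and 2738 for 2 of 5 fibroblast markers, and 8146, 17767 and 26850 for 3 of 6 leukocyte markers. Among these, Cd68 carried the leukocyte sum with 8215, 17067 and 27799 reads, while Lyz2 was lower in the treated libraries, with 186, 76 and 86. Pdgfra carried the fibroblast sum with 107, 1325 and 2821 reads. Myh11, unlike the smooth muscle sum, was lowest in control, with 19, 35 and 73. Not listed were Ptprc, Adgre1 and Cd3e of the leukocyte markers, Col1a2, Dcn and Lum of the fibroblast markers, and Cnn1 of the smooth muscle markers. Acta2, Tagln, Col1a1 and Cd79a had at most 30 reads in any library, and the part of such cells in the values below was not tested.

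The stretches of DNA before the start sites of the INK4 genes are shown first, because Cdkn2b and Cdkn2c differed from control in opposite directions past the limit used below and Cdkn2a is the neighbour of Cdkn2b. They are from RefSeq (GRCm38.p6), on the minus strand, 5′ to 3′, and leave out bases in annotated exons. For Cdkn2c the stretch before the start at 109665372 is shown, and the 13 exonic bases left out were at its 5′ end. RefSeq entries were found for 7 of the 10 genes and gave 10 start sites in all. Capitals mark matches, on either strand, to the motifs searched. These were an E2F site (TTTCCCGC, TTTCGCGC, TTTGCCGC or TTTGGCGC), an antioxidant response element (TGACNNNGC), a site for ATF4 (TGATGNAA) and a cAMP response element (TGACGTCA). A GC box was searched as GGGCGG, the usual site of Sp1 and related factors. An AP-1 site, bound by Fos and Jun proteins, was searched as TGANTCA. For FOXO factors, which are known to act on Cdkn1b, the letters were GTAAACA. An E-box, the site of Myc and other factors, was CACGTG. The TATA box, at which the basal machinery can bind, was TATAAA. The cAMP response element was added after the Cdkn2b sequence had been read.
Cdkn2b, chr4:89311040-89311282: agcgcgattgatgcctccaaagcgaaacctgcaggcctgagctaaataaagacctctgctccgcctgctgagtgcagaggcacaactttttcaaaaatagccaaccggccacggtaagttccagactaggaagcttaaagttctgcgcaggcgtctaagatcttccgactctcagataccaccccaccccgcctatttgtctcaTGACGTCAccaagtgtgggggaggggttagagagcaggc
Cdkn2a, Arf start, chr4:89294654-89294869: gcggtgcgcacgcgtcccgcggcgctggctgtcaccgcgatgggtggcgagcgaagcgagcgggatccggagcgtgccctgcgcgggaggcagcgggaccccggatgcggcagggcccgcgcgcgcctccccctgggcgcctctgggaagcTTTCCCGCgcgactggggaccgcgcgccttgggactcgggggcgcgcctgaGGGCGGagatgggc
Cdkn2a, Ink4a start, chr4:89282193-89282442: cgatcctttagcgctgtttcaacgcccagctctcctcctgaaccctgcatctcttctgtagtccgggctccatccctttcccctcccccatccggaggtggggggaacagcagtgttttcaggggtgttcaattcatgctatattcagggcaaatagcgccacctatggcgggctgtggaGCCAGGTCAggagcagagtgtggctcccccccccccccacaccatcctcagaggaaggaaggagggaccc
Cdkn2c, chr4:109665373-109665609: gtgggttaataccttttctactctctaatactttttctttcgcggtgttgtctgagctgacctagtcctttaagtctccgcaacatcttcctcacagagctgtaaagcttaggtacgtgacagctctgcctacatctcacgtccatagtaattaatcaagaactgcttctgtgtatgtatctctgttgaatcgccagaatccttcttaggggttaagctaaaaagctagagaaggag

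The Cdkn2b stretch held a cAMP response element beginning at -46 from the RefSeq start site and none of the other motifs. Of 32851 RefSeq entries of 250 bases, 1.55% hold that element. Since this motif was added after the sequence had been read, the share does not measure how unusual the match is. The stretch before the Arf start held an E2F site at -99 and GC boxes at -48 and, in exonic bases not printed, at -14, which are found in 1.86% and 32.7% of entries, and that before the Ink4a start an antioxidant response element at -70 (10.2% of entries). No match lay in the Cdkn2c stretch printed. A further Cdkn2c start, at 109666756, lies upstream of the printed one. Its upstream bases, which lie in an annotated exon and are not printed, had 3 GC boxes and a GC content of 77.2%. In GC content the 250-base INK4 entries ran from 42.8% for the printed Cdkn2c start to 78.4% for the Arf start, against a median of 52.4% over all entries. Outside the INK4 genes, the Cdk4 entry held 4 E-boxes, a motif found in 6.02% of entries. It also held 2 antioxidant response elements and a GC box. The first Ccnd3 entry held an antioxidant response element, a FOXO site (3.17% of entries) and 2 GC boxes, and the second a GC box. The Cdk6 entry held an E-box and a TATA box (12.4% of entries), and the Cdkn1b entry a GC box. Neither matches nor their lack show whether a factor binds.

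The comparison with control asks how far these transcripts differed between each treated library and the control library. No library received Et2HOBA alone, and the exposure times of the agents differed. The part of Et2HOBA itself, or of exposure time, in these differences was not tested. With GO, Cdkn2b was higher and Cdkn2c and Cdkn1c were lower than in control past the limit, so 3 of 10 genes were past it. Over all listed genes 12.7% were (4.07% higher and 8.6% lower), as were 9.3% of protein-coding genes and 7.81% of those at or above the lowest member in mean normalized count. With Et2HOBA added, Ccnd1 also lay past the limit, which made 2 genes higher and 2 lower of 10, against 14.7% of all listed genes (6.66% higher and 8.04% lower), 16.6% of protein-coding genes and 15% of those at or above the lowest member. With total-count scaling that split was 988 higher and 1837 lower, against 1217 and 1471. Between the treated libraries 0 of 10 genes passed, against 8.55% of all genes (6.39% higher and 2.15% lower), 3.32% of protein-coding genes and 2.72% of those at or above the lowest member. The median log2 ratio of the 10 genes was 0.28 with GO and 0.21 with GO+Et2HOBA, against -0.01 and -0.00015 over all genes. The median size without regard to sign was 0.52 and 0.80, against 0.32 and 0.40 over all genes. Both comparisons use the same control library, so they are not independent of each other.

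**Figure D1:**
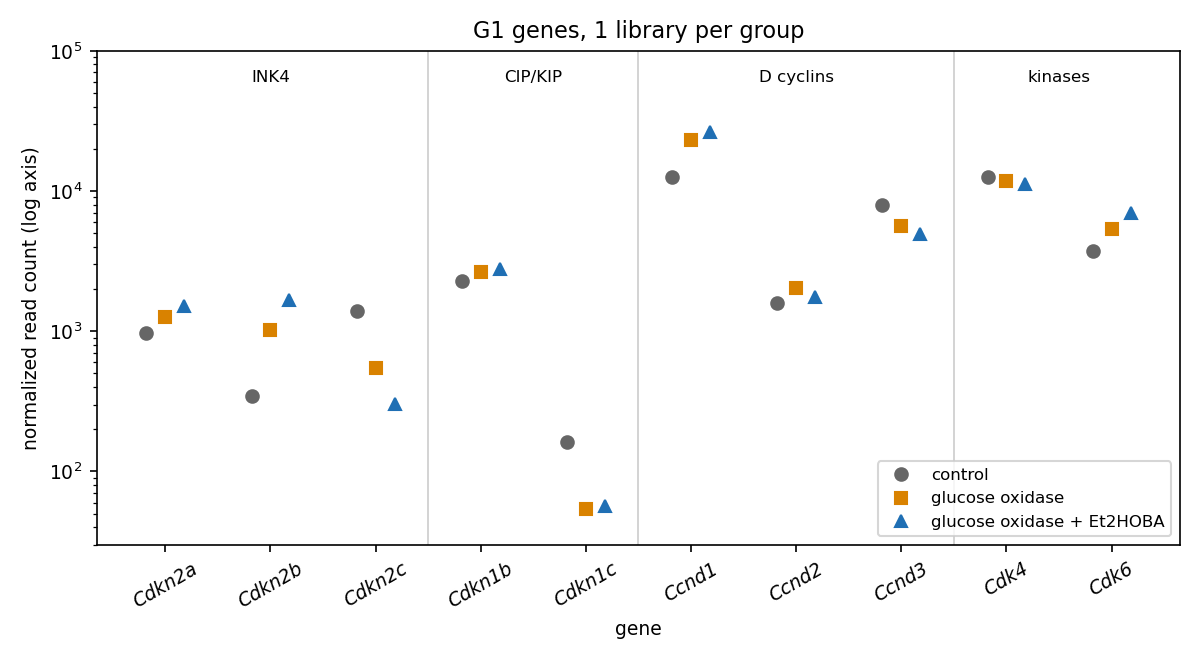
Normalized read count (log axis) of each G1 gene in the control, GO and GO+Et2HOBA libraries, 1 point per library and no error bars since there are no replicates. Cdkn2b lies lowest in control and Cdkn2c highest in control, and the points of Cdk4 lie close together.

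Among the INK4 inhibitors, Cdkn2b, which encodes p15, a kinase inhibitor known as a target of TGF-beta signaling, differed most upward. Cdkn2b (ENSMUSG00000073802.5, chromosome 4, 89306299 to 89311039, minus strand) had 357 reads in control, 987 with GO and 1738 with GO+Et2HOBA. Control was the lowest library and the one given both agents the highest. The ratio to control was 2.96 (95% interval 2.62 to 3.35) with GO and 4.84 (4.31 to 5.44) with GO+Et2HOBA, and the library with both agents was at 1.64 times GO (1.51 to 1.77). By log2 ratio Cdkn2b was 288th from the top of all listed genes with GO and 227th with GO+Et2HOBA.

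Cdkn2a, the neighbour of Cdkn2b, encodes p16, an INK4 kinase inhibitor, and from another first exon p19Arf, which stabilizes p53. It (ENSMUSG00000044303.6, chromosome 4, 89274471 to 89294653, minus strand) had 1000, 1214 and 1575 reads. The order of the libraries was that of Cdkn2b, with smaller steps: 1.30-fold control (1.19 to 1.41) with GO and 1.56-fold (1.44 to 1.70) with GO+Et2HOBA, neither past the limit. Its 2 annotated transcripts share exon 2 (341 bases) and most of exon 3, and differ in a first exon of 207 bases for Ink4a and 320 bases for Arf. One count per gene was deposited, so the p16 and Arf transcripts cannot be told apart.

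Cdkn2c encodes p18, an INK4 inhibitor that is known to be transcribed in cycling cells, and it differed in the other direction. Cdkn2c (ENSMUSG00000028551.14, chromosome 4, 109660876 to 109667189, minus strand) had 1427 reads in control, 527 with GO and 316 with GO+Et2HOBA. Control was the highest library here. The GO library was at 0.395 of control (0.357 to 0.437) and the library with both agents at 0.220 of control (0.194 to 0.249) and 0.557 of GO (0.483 to 0.642). Cdkn2c was 994th from the bottom of all genes with GO and 332nd with GO+Et2HOBA. None of these INK4 genes shared a 50-base stretch with another annotated gene.

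The makeup of the INK4 transcripts differed between the libraries as well as their sum. Per kilobase of merged exons, the summed level of these 3 INK4 genes was 1590 normalized reads in control, 2012 with GO and 2611 with GO+Et2HOBA, or 1.26 and 1.64 times control. Cdkn2b made up 15.6% of that level in control, 36.6% with GO and 46.1% with GO+Et2HOBA. The share of Cdkn2c was 32.4%, 10.1% and 4.34%, while Cdkn2a kept between 49.6% and 53.3%. The ratio of Cdkn2b to Cdkn2c per kilobase was 0.483 in control, 3.62 with GO and 10.6 with GO+Et2HOBA. With the longest transcript as the length, Cdkn2b made up 13.2%, 31.1% and 39.8%. With Cdkn2d, the remaining INK4 gene, counted in (25.5% of the family in control), the sum over merged exons was 2136, 2460 and 2994, or 1.15 and 1.40 times control, and the Cdkn2b share 11.7%, 29.9% and 40.2%.

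**Figure D2:**
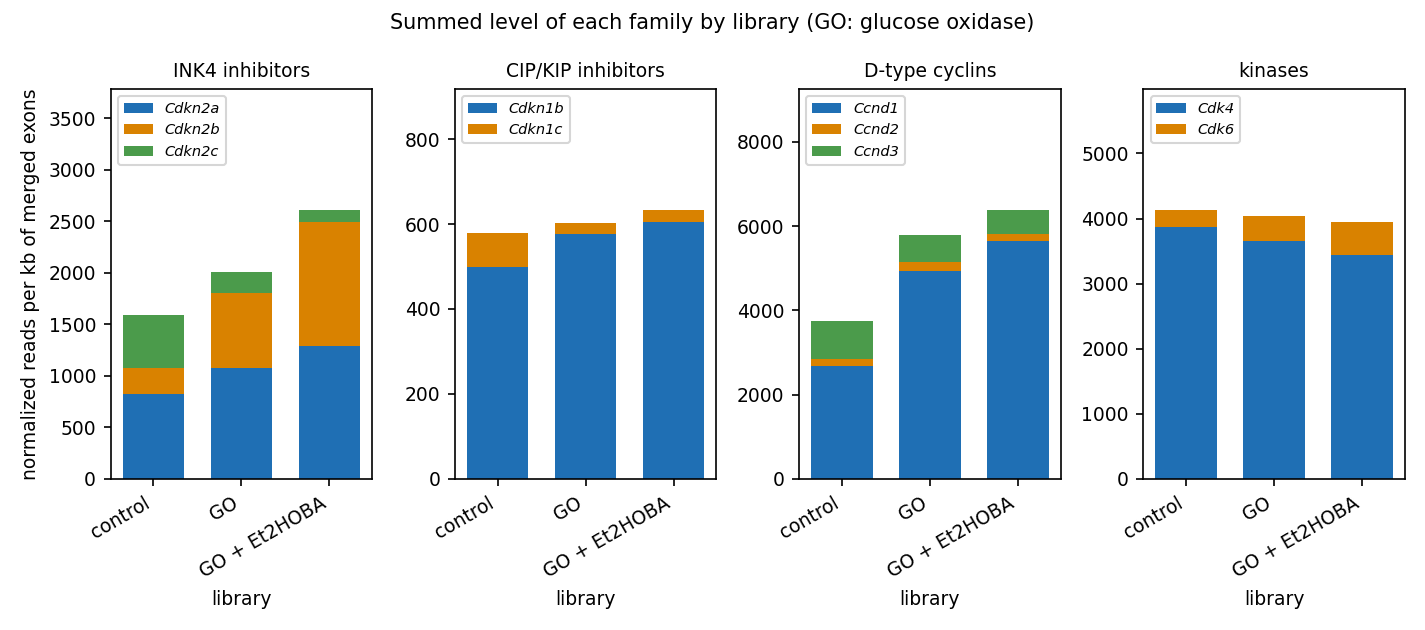
Normalized reads per kilobase of merged exons, stacked by gene, for each family (panels, each with its own linear axis from 0) in the 3 libraries. Only the G1 genes described here are drawn, so Cdkn1a and Cdkn2d are left out of their families. The Cdkn2b part of the INK4 bar is 15.6% in control and 46.1% with GO+Et2HOBA, and the summed kinase bars differ little, from 4131 to 3946.

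Of the CIP/KIP inhibitors, Cdkn1b, which encodes p27, the inhibitor that holds Cdk2 complexes in check in resting cells, stayed near its control level. Cdkn1b (ENSMUSG00000003031.14, chromosome 6, 134920401 to 134925513, plus strand) had 2339, 2534 and 2861 reads. The ratio to control was 1.16 (1.09 to 1.23) with GO and 1.22 (1.15 to 1.28) with GO+Et2HOBA. Between the treated libraries the ratio was 1.05 (0.994 to 1.11), an interval that includes equal levels.

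Cdkn1c encodes p57, an imprinted inhibitor of cyclin-kinase complexes, and was the least abundant of the 10 genes. Cdkn1c (ENSMUSG00000037664.13, chromosome 7, 143458339 to 143461050, minus strand) had 168 reads in control, 52 with GO and 59 with GO+Et2HOBA. Both treated libraries lay below control, at 0.331 (0.238 to 0.454) and 0.349 (0.255 to 0.472) of its level. The treated libraries could not be separated at this depth, with a ratio of 1.05 (0.714 to 1.56). An antisense gene, Gm44732, overlaps 625 bases of its exons, and whether strand was used in counting is not given in the sources used here. In the authors' deposited table, whose scale shrinks low counts, Cdkn1c had -0.69 with GO and -0.98 with GO+Et2HOBA, both short of 1.

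The D-type cyclins are the growth factor sensors of the cycle. Ccnd1 (ENSMUSG00000070348.5, chromosome 7, 144929931 to 144939925, minus strand) had 13013 reads in control, 22429 with GO and 27556 with GO+Et2HOBA. Both treated libraries lay above control, at 1.84 (1.80 to 1.88) and 2.10 (2.06 to 2.15) times its level. The log2 ratios, 0.88 and 1.07, lay on either side of the limit, and with total-count scaling the second was 0.92, short of the limit. Between the treated libraries the ratio was 1.14 (1.12 to 1.16).

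Ccnd3, a D cyclin best known from differentiating and blood cells, differed the other way. Ccnd3 (ENSMUSG00000034165.16, chromosome 17, 47505051 to 47599691, plus strand) had 8218 reads in control, 5389 with GO and 5113 with GO+Et2HOBA. It was at 0.701 of control (0.677 to 0.726) with GO and at 0.618 (0.597 to 0.640) with GO+Et2HOBA, and at 0.882 (0.849 to 0.916) between the treated libraries. None of these differences passed the limit.

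Ccnd2 was the D cyclin with the fewest reads and the smallest difference with both agents. Ccnd2 (ENSMUSG00000000184.12, chromosome 6, 127125162 to 127152193, minus strand) had 1633, 1957 and 1811 reads. The GO library was the highest, at 1.28 times control (1.20 to 1.37). With Et2HOBA the ratio was 1.10 (1.03 to 1.18), and its log2 value, 0.14, was -0.01 with total-count scaling, under which the median of all genes was -0.13. The library with both agents was at 0.860 (0.806 to 0.917) of GO.

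Summed per kilobase, the D cyclins had 3753 normalized reads in control, 5786 with GO and 6381 with GO+Et2HOBA, or 1.54 and 1.70 times control. Ccnd1 made up 71.3% of this level in control, 85.3% with GO and 88.3% with GO+Et2HOBA, and Ccnd3 24.2%, 11.0% and 8.79%. With the longest transcript as the length, which is far shorter than the merged exons for Ccnd3, its shares were 36.3%, 18.1% and 14.8%. Ccnd1 shares 1100 exonic bases with LTO1 on the opposite strand, and Ccnd3 361 with Bysl. These neighbours, named for their position, had 743, 753 and 731 reads (LTO1) and 2478, 2477 and 3010 reads (Bysl).

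Of the catalytic partners, Cdk4 lay near its control level and Cdk6 did not. Cdk4 (ENSMUSG00000006728.12, chromosome 10, 127063534 to 127067920, plus strand) had 12954 reads in control, 11440 with GO and 11623 with GO+Et2HOBA. The ratio to control was 0.944 (0.921 to 0.968) with GO and 0.892 (0.869 to 0.914) with GO+Et2HOBA, the former being the smallest difference of the 10 genes with GO. Of the 50-base stretches in its longest transcript, 29.5% are shared with other genes, mainly with Tspan31, which overlaps 641 exonic bases on the opposite strand and had 2777, 2797 and 3257 reads.

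Cdk6, the other D cyclin kinase, was higher in both treated libraries without passing the limit. Cdk6 (ENSMUSG00000040274.11, chromosome 5, 3341485 to 3531008, plus strand) had 3861 reads in control, 5208 with GO and 7281 with GO+Et2HOBA. The ratio was 1.44 (1.38 to 1.50) and 1.87 (1.80 to 1.95) against control, and 1.30 (1.25 to 1.35) between the treated libraries. Per kilobase, Cdk6 was at 0.0692 of the level of Cdk4 in control, 0.106 with GO and 0.145 with GO+Et2HOBA. The summed kinase level was 4131, 4033 and 3946 normalized reads per kilobase. Set against it, the summed level of Cdkn2a, Cdkn2b and Cdkn2c was 0.385 in control, 0.499 with GO and 0.662 with GO+Et2HOBA, and the summed D cyclin level 0.909, 1.43 and 1.62. That INK4 sum leaves out Cdkn2d and may include Arf reads of Cdkn2a, which cannot be separated. The D cyclin level over the INK4 sum was 2.36, 2.88 and 2.44, or 3.01, 3.38 and 2.86 with the longest transcript as the length.

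**Figure D3:**
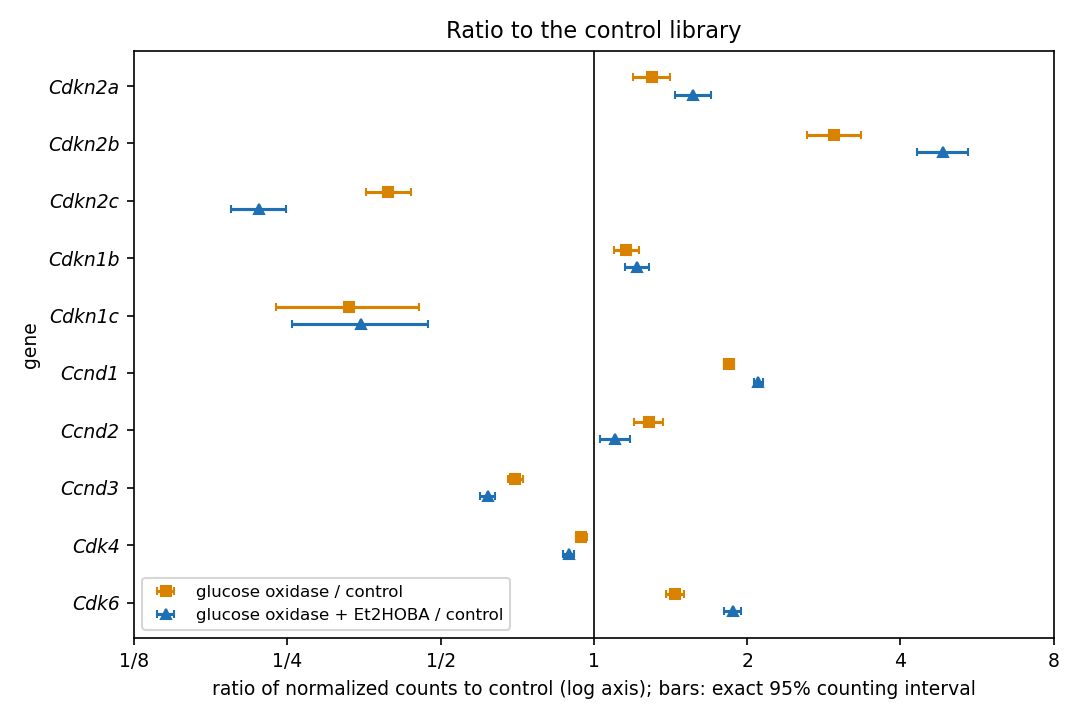
Ratio of normalized counts to control (log axis) for each G1 gene with GO (squares) and with GO+Et2HOBA (triangles); bars are exact 95% counting intervals of 2 libraries and the line marks equal levels. Cdkn2b reaches 2.96 and 4.84 and Cdkn2c 0.395 and 0.220, while Cdk4, Cdkn1b and Ccnd2 lie near 1.

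Ordered by normalized reads per kilobase of merged exons, Cdk4 led in control with 3864, followed by Ccnd1 (2678), Ccnd3 (908), Cdkn2a (827), Cdkn2c (515), Cdkn1b (498), Cdk6 (267), Cdkn2b (249), Ccnd2 (168) and Cdkn1c (79.8). In both treated libraries Ccnd1 led, with 4934 with GO and 5634 with GO+Et2HOBA, and Cdk4 was second. Cdkn2b was in place 4 in both treated libraries, with 736 and 1204, and Cdkn2c in place 9, with 203 and 113. There is no spread between replicates to set neighbours apart. With the longest transcript as the length, Ccnd2 lay above Cdkn2b in control, and Cdkn2b was in place 5 in both treated libraries.

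The wider pathway was described by gene lists, by counts and medians only. Inhibitors of the same families outside the 10 genes did not pass the limit. Cdkn1a, which encodes p21, a p53 target that inhibits Cdk2 complexes, had 17707 reads in control, 21162 with GO and 26493 with GO+Et2HOBA, at log2 ratios of 0.35 and 0.57 to control. Per kilobase it made up 89.3% of the CIP/KIP level in control when counted with Cdkn1b and Cdkn1c. The CIP/KIP sum with Cdkn1a was at 1.25 and 1.44 times control, against 1.04 and 1.10 without it. Cdkn2d, which encodes the INK4 protein p19, had 886, 681 and 626 reads, at -0.28 and -0.50.

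Downstream of the D cyclins, the cyclin E and A arm was lower. Of its 5 genes, 3 were lower past the limit and 0 higher in both comparisons with control, with medians of -1.27 and -1.50; over all listed genes 8.6% and 8.04% were lower past it. Ccna2, the cyclin of S phase, had 1723 reads in control, 339 with GO and 171 with GO+Et2HOBA. Ccne2 had 398, 121 and 56 reads, and Ccne1, which with Ccne2 activates Cdk2 at the start of S phase, 756, 287 and 263. The kinase itself, Cdk2, had 2078, 1706 and 1499 reads, a log2 ratio of -0.19 and -0.48. Between the treated libraries Ccne2 and Ccna2 were lower just past the limit with GO+Et2HOBA, at -1.08 and -1.05. These were 2 of the 5 genes, against 2.15% of all listed genes lower past it. So transcripts of Ccnd1 and of the E and A cyclins lay on opposite sides of control in each treated library.

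Of 13 RB family, E2F and DP genes, 1 was lower past the limit with GO and 3 with GO+Et2HOBA, and 0 were higher. The first count is near the 8.6% of all listed genes that were lower with GO, and the share with GO+Et2HOBA was 8.04%. E2f7, a repressor of E2F targets, had 472, 159 and 91 reads. E2f2, an activator, had 68, 27 and 8 reads, and Tfdp2, a partner of E2F proteins, 642, 382 and 254. Rb1, which encodes the substrate of the Cdk4 and Cdk6 complexes, had log2 ratios of 0.00093 and 0.14, and E2f1 -0.03 and -0.12.

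Of 9 genes in the turnover of p27 and D cyclins, 0 passed the limit with GO and 1 with GO+Et2HOBA, against 12.7% and 14.7% of all listed genes, so these counts do not set the list apart. The gene past it was Skp2, which marks p27 for degradation, with 593, 339 and 283 reads (log2 ratios -0.69 and -1.05). None of the 3 subunits of the kinase that activates CDKs and none of the 9 listed repressors of the Cdkn2a-Cdkn2b locus, such as Polycomb proteins, passed the limit in any comparison. Over all listed genes 12.7%, 14.7% and 8.55% passed it, so these counts do not set the lists apart. The repressors had medians of 0.03 with GO and -0.01 with GO+Et2HOBA, and 4 and 5 of them lay below 0. Lowest was Tbx2, at log2 ratios of -0.72 and -0.87 to control. Of 8 proliferation markers, 6 were lower past the limit with GO and 7 with GO+Et2HOBA, with medians of -1.65 and -2.60, against 8.6% and 8.04% of all listed genes lower past it. Mcm5, a helicase subunit, had 3041, 967 and 443 reads and Top2a, a topoisomerase of dividing cells, 6671, 1842 and 1048. Their part in the values of the G1 genes was not tested.

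**Figure D4:**
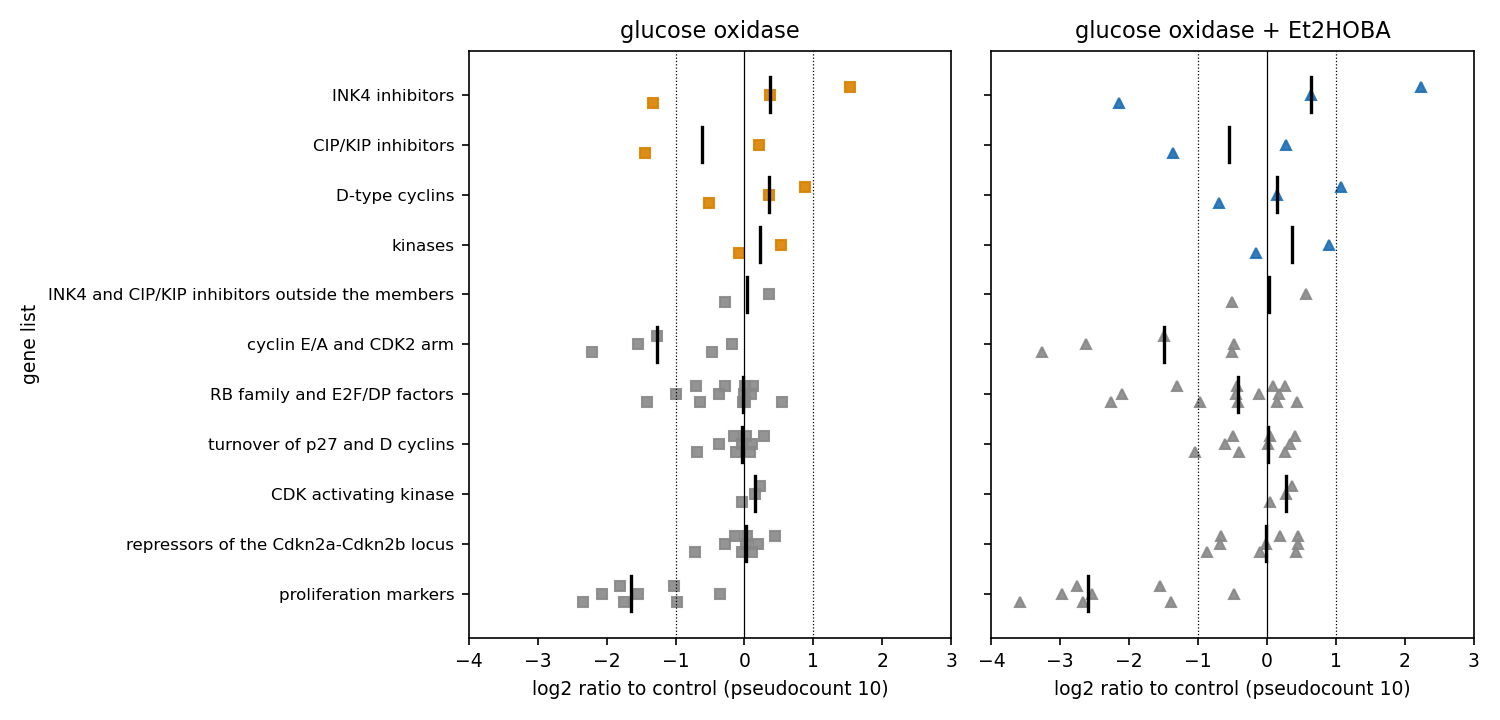
Log2 ratio to control (pseudocount 10) of each gene, by list, with GO (left) and with GO+Et2HOBA (right); colored points are the 10 G1 genes, grey points other pathway genes, black bars list medians and dotted lines the limit of 1 log2 unit. The cyclin E/A arm (medians -1.27 and -1.50) and the proliferation markers (-1.65 and -2.60) lie left of 0, and the INK4 genes spread to both sides.

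By a fixed rule, genes with the most similar pattern were sought for the 3 members farthest from control, Cdkn2b, Cdkn2c and Cdkn1c, as the smallest distance in the pair of log2 ratios to control over 3 libraries. Of 8477 protein-coding genes with a mean normalized count of 500 or more, Rras2, a RAS-related GTPase, lay nearest to Cdkn2b at a distance of 0.06, with 1879, 5301 and 8761 reads. Mpp6 and Havcr2 followed at 0.11 and 0.12. Nearest to Cdkn2c were Lgals3bp (distance 0.05), Icam2 (0.05) and Tmem176a (0.07), and nearest to Cdkn1c were Tgfbi (0.16), Igfbp3 (0.18) and Ncapg2 (0.19). Within a distance of 0.2 lay 13 genes for Cdkn2b, 20 for Cdkn2c and 4 for Cdkn1c. The log2 ratios of Cdkn1c, which has few reads, were -1.44 and -1.37 here, but -1.58 and -1.50 with a pseudocount of 1. Its counting intervals were also wide, 0.238 to 0.454 and 0.255 to 0.472 of control. The distances and order of its nearest genes may thus depend on the pseudocount and on counting error.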

How the data were processed

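Polyadenylated RNA of 3 libraries was made into stranded libraries, per the labels' protocols. Per the submitters' processing notes STAR and featureCounts were used on mm10; versions, annotation and strand setting are not given in the sources used here. The authors deposited raw read counts of the control and the glucose oxidase plus Et2HOBA libraries, with log-normalized values and their log2 difference, per the file headers. For glucose oxidase against control the authors deposited log2 differences only.

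Their form, found from the values, is a function (the inverse hyperbolic sine) of each count's square root with 1 constant per library. Inverted, it placed 100% of 18275 symbol-matched genes of the glucose oxidase library within 0.01 of a whole read, against 3.31% after adding 1 read to every control value; 12 more genes were placed by whole reads. The recovery and the ratios were tested on simulated data.

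Counts were scaled by median-of-ratios size factors over the 3 libraries. Log2 ratios had a pseudocount of 10, and genes were counted at 1 log2 unit. No count model was fitted. Intervals are Clopper-Pearson at 95% (scipy 1.17.1) and cover counting error only. The tables list no gene under 5 reads in all libraries. Merged exon lengths, overlaps and 50-base stretches came from GENCODE release M21, where 17878 listed IDs, including all 10 members, had the same version and position. Alternatives were total-count and TMM scaling (edgeR 4.0.16), pseudocounts of 1 and 50, limits of 0.5 and 2, the deposited scale and a filter at a mean of 10 normalized counts; the longest transcript as a gene's length was chosen after seeing the data.

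The members and lists were chosen with earlier results of these data known. All 10 members are named; of other pathway genes, Cdkn1a, Cdkn2d, Rb1, E2f1, Ccne1, Ccne2, Cdk2 and Skp2, and at most 4 per list past the limit, of which the text gives a part. Neighbouring genes were named for their position, and Tbx2 and the cell type markers after their values were seen.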

Additional observations from a re-analysis of the deposited data

How the results depend on the processing

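The counts of G1 genes past the limit were 3, 4 and 0 for glucose oxidase against control, both agents against control, and both agents against glucose oxidase. A limit of 0.5 log2 units gave 6, 7 and 2, and a limit of 2 gave 0, 2 and 0; the last is the same as at a limit of 1. Scaling, pseudocount, the deposited scale and the filter kept each count within 1.5 times. On the deposited scale Cdkn1c was short of the limit in both comparisons with control, with a pseudocount of 50 it was short with both agents (3 genes past), and Ccnd1 was short with total-count scaling (3 genes past). The background counts, 2317, 2688 and 1563 in the same order, were 4243, 4494 and 3311 with a pseudocount of 1, and 1163, 1696 and 585 with 50. They were 6175, 7332 and 4670 at a limit of 0.5, 526, 695 and 391 at 2, and 734 and 1768 on the deposited scale, where the third comparison lists no G1 gene and was not run. Total-count scaling put the median of all genes at -0.13 for both agents against control, and the split was then 988 higher and 1837 lower against 1217 and 1471. Of 30 gene and comparison pairs, 27 kept 1 sign; the exceptions, all with total-count scaling, were Ccnd2 with both agents against control (-0.01), and Cdkn1b (-0.02) and Cdkn1c (-0.02) between the treated libraries. Against the shift of all genes, which was -0.13 and -0.08 there, these 3 values are higher than the median gene. Depth limits Cdkn1c most, with 52 to 168 reads. Leaving out a replicate is not possible with 1 library per group. No paired analysis was possible because each group has 1 library.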

Other observations

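Genes within 200 kb of Cdkn2a and Cdkn2b on chromosome 4 (GRCm38) were looked at by position. Values are reads in the order control, GO, GO+Et2HOBA. Mtap (89137122 to 89181081), a methionine salvage enzyme, had 2083, 2195 and 2291. Wincr1, a long noncoding RNA at 89050308 to 89084614, had 20, 49 and 86. Gm12602, a noncoding transcript between them, had 18, 24 and 30, and the snoRNA Gm26490 6, 1 and 0. The last pair has too few reads to place a difference.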
